A study of Homo sapiens with 6 samples.

Results

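The CXC chemokines are small secreted proteins, named for a pair of conserved cysteines with 1 residue between them, that direct the movement of leukocytes. Their RNA was examined in spheroids and monolayers of NCI-H226, an established human mesothelioma cell line. The 10 genes CXCL1, CXCL2, CXCL3, CXCL5, CXCL6, CXCL8, CXCL10, CXCL11, CXCL12 and CXCL16 were read by 17 probe sets, which are all that the array's annotation gives to 1 of these genes alone. They stand among 54613 tested probe sets and 19775 genes. Each single spheroid was formed from 10000 cells in a well coated with poly-HEMA, to which cells do not attach, and kept for 24 hours. How many spheroids went into each spheroid culture (n = 3 cultures) is not given in the sources used here. Monolayers (n = 3 cultures) grew attached. Both groups came from the same line, the labels name no drug or engineered allele, and each culture was hybridized to 1 Affymetrix U133 Plus 2.0 array. The labels call the cultures biological replicates, and the study describes spheroids from separate experiments. How the monolayers were kept apart is not given in the sources used here. The p values rest on the spread between these cultures. In limma, the main test, the spread of each probe set is drawn toward that of probe sets of like level. RNA was taken from whole cultures, in which a change in the share of cells that express a gene cannot be told apart from a change in RNA per cell.

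CXC chemokines fall into groups by the cells they attract. CXCL1, CXCL2, CXCL3, CXCL5, CXCL6 and CXCL8 (interleukin 8) carry a Glu-Leu-Arg motif before the cysteines and draw neutrophils. They act on the receptor CXCR2, and some of them also on CXCR1. They are classical targets of NF-kB, the transcription factor switched on by interleukin 1 and TNF. CXCL10 and CXCL11 lack the motif, are induced by interferons, and attract activated T cells and natural killer cells through CXCR3. CXCL12 is a largely constitutive chemokine of stromal cells that acts on CXCR4 and is scavenged by ACKR3, and CXCL16 is made as a transmembrane protein whose shed form attracts cells that carry CXCR6. Mesothelial cells and mesothelioma cells are known to secrete CXCL8.

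Of the 10 genes, 8 lie on chromosome 4, CXCL12 on chromosome 10 and CXCL16 on chromosome 17. The neutrophil-attracting members are neighbours there, in the order CXCL8, CXCL6, CXCL1, CXCL5, CXCL3 and CXCL2, with the platelet chemokine genes PF4V1, PF4 and PPBP between them, and CXCL9, CXCL10 and CXCL11 form a second cluster. The RefSeq promoter table (GRCh38.p14) held 9 of the 10 members. The letters GGAATTTCC, a form of the kB site that NF-kB binds, were searched on both strands of the 250 bases before each start site. They were chosen after these promoters had been read. They occurred in 8 members, CXCL1, CXCL2, CXCL3, CXCL5, CXCL6, CXCL8, CXCL10 and CXCL11, against 145 of all 35116 promoters (0.413%), and not in CXCL12. The windows of 60 bases around these matches are shown to describe letters that the neutrophil-attracting and interferon-induced members share. Since the letters were chosen from these promoters, the share over all promoters is no test of the members. Each is written 5′ to 3′ along the gene's own strand with the match in capitals. In CXCL10 and CXCL11 the capitals are the reverse complement, since the match lies on the opposite strand.
CXCL1, chr4:73869289-73869348, + strand: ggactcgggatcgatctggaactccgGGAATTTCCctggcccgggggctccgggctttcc
CXCL2, chr4:74099239-74099298, - strand: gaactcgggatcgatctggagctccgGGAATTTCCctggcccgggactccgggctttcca
CXCL3, chr4:74038734-74038793, - strand: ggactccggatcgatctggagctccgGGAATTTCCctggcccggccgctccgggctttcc
CXCL5, chr4:73998734-73998793, - strand: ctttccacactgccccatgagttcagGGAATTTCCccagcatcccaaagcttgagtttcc
CXCL6, chr4:73836563-73836622, + strand: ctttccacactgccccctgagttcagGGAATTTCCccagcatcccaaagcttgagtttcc
CXCL8, chr4:73740452-73740511, + strand: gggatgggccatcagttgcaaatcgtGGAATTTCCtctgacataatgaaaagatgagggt
CXCL10, chr4:76023640-76023699, - strand: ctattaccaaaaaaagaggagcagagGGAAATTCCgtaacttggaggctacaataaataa
CXCL11, chr4:76036112-76036171, - strand: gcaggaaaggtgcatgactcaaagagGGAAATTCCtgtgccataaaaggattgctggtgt
The match began 78, 77 and 78 bases before the start site in CXCL1, CXCL2 and CXCL3, 90 and 89 bases before it in CXCL5 and CXCL6, 91 bases before it in CXCL8, 176 in CXCL10 and 75 in CXCL11. Set side by side without gaps, the windows of CXCL5 and CXCL6 were identical at 59 of 60 bases and those of CXCL1 and CXCL3 at 56 of 60, whereas those of CXCL1 and CXCL8 shared 25 of 60. A second set of letters, GAAA, then any 2 bases, then GAAA, which resembles the element bound by interferon regulatory factors, was found in CXCL10 alone of the 9 members and in 1061 of the 35116 promoters (3.02%).
CXCL10, chr4:76023684-76023743, - strand: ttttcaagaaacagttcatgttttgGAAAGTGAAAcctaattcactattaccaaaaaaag
These matches describe letters in a reference sequence, and binding was not measured.

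Signals are the deposited MAS5 intensities, which are linear and have no unit. Array medians were 15.6, 18.0 and 15.2 in spheroids and 14.7, 14.6 and 14.7 in monolayers. For the comparison the signals were therefore taken to log2 and centred on each array's median. A probe set is called when limma gives an adjusted p under 0.05 over all 54613 probe sets. Counts at an unadjusted p are given without the share of all probe sets, which was not counted. At that threshold 1519 probe sets were higher and 3630 lower in spheroids, 9.43% of those tested in both directions together. With no centring the split was 2561 and 2863, and after quantile normalization 2455 and 2967. The median log2 fold change of all probe sets was -0.08 with centring and 0.07 without, and changes are given relative to the array median. Detection calls were not analysed here, and the 20th percentile of all signals, 3.11, is used as a mark for dim values. The mesothelioma markers WT1 (1811 to 2009.5 in spheroids and 1347 to 1845 in monolayers), KRT18, KRT19 and MSLN were all present, MSLN (mesothelin) at 298 to 409 in spheroids and 179 to 345 in monolayers. Monolayer 1 stood apart from the other monolayers. It had a CALB2 (calretinin) signal of 1582 where monolayers 2 and 3 had 163 and 83.6, and a KRT5 (keratin 5) signal of 1845 where they had 129.9 and 79.3. Spheroid CALB2 signals were 2238, 1317 and 1765, and spheroid KRT5 signals were 910.5, 267 and 290.4. Neither passed over all arrays (log2 fold changes 2.49 and 0.49), and both passed without monolayer 1 (3.75 and 1.88, limma adjusted p = 2.53e-04 and 0.0340). Member changes at which monolayer 1 stood apart are given with and without it. Of 6 measured leukocyte markers limma called 0 (2 higher at an unadjusted limma p under 0.05, and 0 by the methods' t-test after adjustment). Their summed signal was 163 to 194 in spheroids and 115 to 139.9 in monolayers. The pan-leukocyte marker PTPRC had signals of 13.3, 13.9 and 12.1 in spheroids and 6.70, 3.51 and 1.56 in monolayers, without overlap (log2 fold change 1.83, limma adjusted p = 0.106). CD14, CSF3R and CD3E had log2 fold changes of 0.99, 1.04 and 0.55, and ITGAM and the neutrophil marker FCGR3B of -0.07 and -0.09. Of 9 mesothelioma markers only PDPN (podoplanin) was called, higher by 1.10 log2 units (limma adjusted p = 0.0396). At an unadjusted limma p under 0.05, 2 of them were higher and 1, THBD (thrombomodulin), was lower. THBD had signals of 96.1, 86.5 and 54.3 in spheroids and of 349, 99.9 and 127 in monolayers, without overlap (log2 fold change -1.24, limma adjusted p = 0.109). Of 4 platelet markers only ITGA2B was called, higher by 1.76 log2 units (limma adjusted p = 0.0277). Of 5 endothelial and 5 fibroblast markers limma called 0 (1 and 0 at an unadjusted p under 0.05, and 0 by the methods' t-test). Summed signals were 44.1 to 82.8 in spheroids and 26.8 to 36.9 in monolayers for platelet markers, 60.1 to 111 and 30.1 to 457 for endothelial markers, and 1912 to 2200.3 and 1816 to 2361.5 for fibroblast markers. Monolayer 1 stood apart here too, with signals of 422 for the endothelial marker KDR and 313 for the fibroblast marker COL3A1. Monolayers 2 and 3 had 13.6 and 8.35 for KDR and 4.67 and 6.67 for COL3A1. The part of the cell types of all these markers in the chemokine signals was not tested.

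RNA of the neutrophil-attracting chemokines and of CXCL10 was upregulated in spheroids. Limma called 7 of the 17 member probe sets, all 7 higher in spheroids (2.78% of all tested probe sets were called higher), and they read 7 genes. These were the 6 neutrophil-attracting genes and CXCL10. CXCL8 was called at 1 of its 2 probe sets, and CXCL2 and CXCL5 only at 209774_x_at and 214974_x_at, not at their other probe sets. At 10 of the 17, all 3 spheroids lay above all 3 monolayers on the centred values (10.2% of all tested probe sets), and at none did they lie below. With spheroid 3 left out limma called 0 of the 17 (10 at an unadjusted p under 0.05), and between 3 and 9 with any other single array left out. Without spheroid 3, 1.16% of all tested probe sets were called higher. Changes ran from -0.20 to 3.53 on the log2 scale with a median of 1.71. Limma called 0 member probe sets lower, and 0 were lower at an unadjusted p under 0.05, where 6.65% of all tested probe sets were called lower and 17.6% had all spheroids below all monolayers.

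CXCL1, a neutrophil attractant first known for its growth activity on melanoma cells, had signals of 1072, 2464 and 3239 in spheroids 1, 2 and 3 and of 41.3, 314 and 315 in monolayers 1, 2 and 3. The groups did not overlap, and monolayer 1 lay far below the other monolayers. CXCL1 rose by 3.53 log2 units, which is 11.6-fold (standard error, SE, 0.73, limma adjusted p = 0.0176). Without monolayer 1 the log2 fold change was 2.56 (SE 0.37, limma adjusted p = 0.00230).
CXCL2, its close paralog, had signals of 3014, 3410.2 and 4249 in spheroids and of 111, 917 and 734 in monolayers at the probe set 209774_x_at. All spheroids lay above all monolayers, and the lowest monolayer was again monolayer 1. CXCL2 rose there by 2.92 log2 units (SE 0.66, limma adjusted p = 0.0259) and by 1.96 without monolayer 1 (limma adjusted p = 5.75e-04). Its other probe sets, 1569203_at and 230101_at, had signals between 1.57 and 14.1 in spheroids and between 0.912 and 10.3 in monolayers. The groups overlapped at both, and neither passed (log2 fold changes 0.29 and 0.48, SEs 0.98 and 0.89).
CXCL3, the third of these paralogs, had signals of 765, 1821 and 3032 in spheroids and of 25.2, 248 and 324 in monolayers. Spheroid 1 was the lowest spheroid and monolayer 1 the lowest monolayer, as for CXCL1. CXCL3 rose by 3.53 log2 units (SE 0.88, limma adjusted p = 0.0367). The log2 fold change was 2.37 without monolayer 1 (limma adjusted p = 0.00860) and 4.20 without monolayer 3. Probe sets whose names end in x_at hold probes that match more than 1 transcript, so signal may be shared among such paralogs. The same limit holds for CXCL5 at 214974_x_at and for CXCL8 at 202859_x_at.

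**Figure D1:**
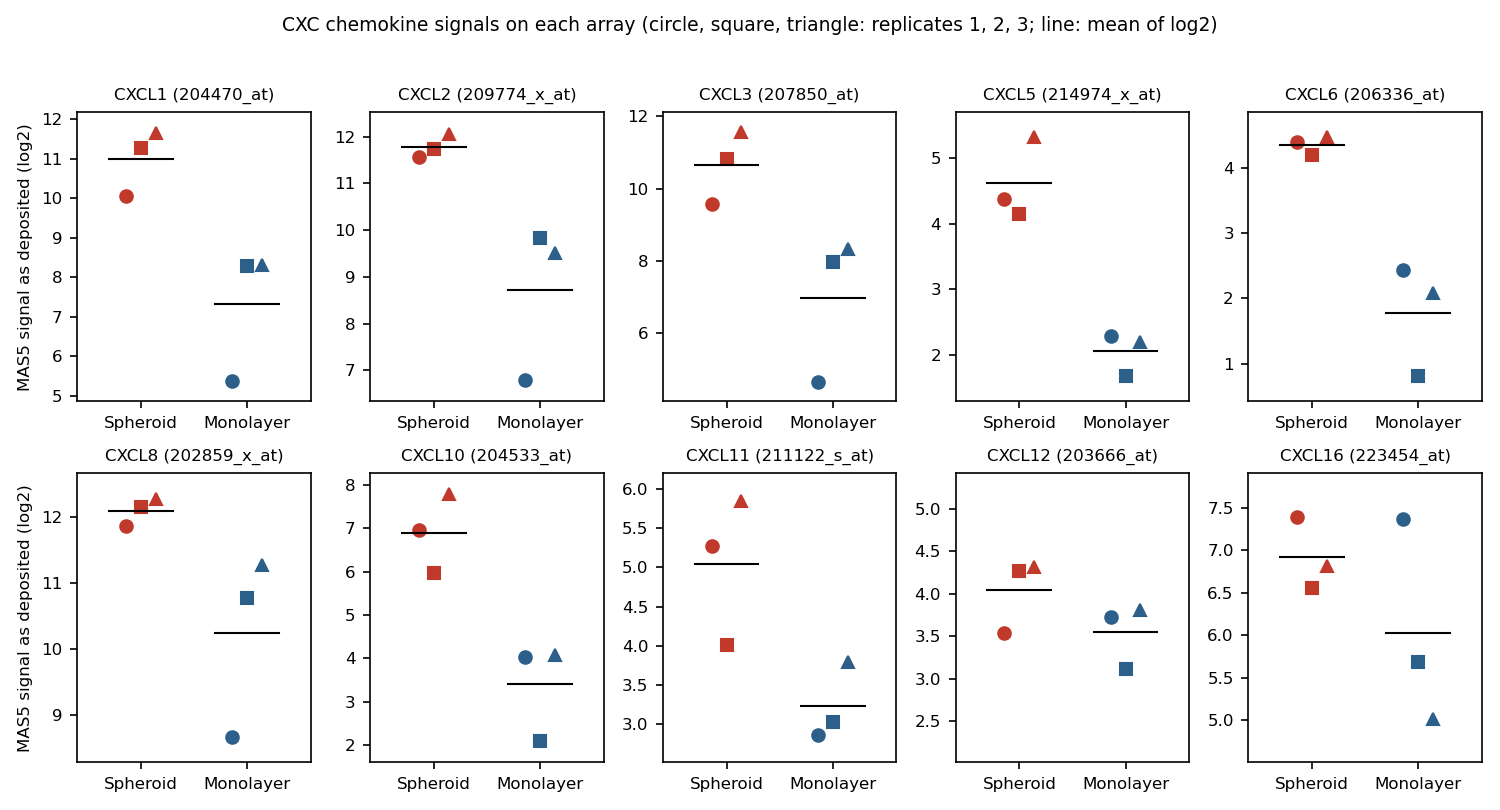
Deposited MAS5 signal on a log2 axis for each of the 10 CXC chemokine genes at its brightest probe set, in 3 spheroid and 3 monolayer arrays; circles, squares and triangles are replicates 1, 2 and 3, lines are means of the log2 values, and the panels have different vertical ranges. For CXCL1, CXCL2, CXCL3 and CXCL8 monolayer 1 lies far below the other monolayers (41.3 against 314 and 315 for CXCL1), and all spheroids lie above all monolayers for the 6 neutrophil-attracting genes, CXCL10 and, before centring, CXCL11.

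CXCL8, the prototype neutrophil chemokine, was read by a pair of probe sets, of which 1 was called. At 211506_s_at the signals were 2637, 3930.3 and 4536 in spheroids and 154, 768 and 1187 in monolayers. At 202859_x_at they were 3735, 4560.05 and 4979 in spheroids and 407, 1747 and 2492 in monolayers. Neither pair of groups overlapped, and monolayer 1 was the lowest array at both. CXCL8 rose at 211506_s_at by 2.65 log2 units (SE 0.62, limma adjusted p = 0.0302). The change at 202859_x_at was 1.71 (SE 0.55) and did not pass (limma adjusted p = 0.0923). The change at 202859_x_at was smaller by 0.94 on the log2 scale, that is -0.94 for it minus the other (exact permutation over arrays, two-sided, p = 0.1, the lowest value possible here). Without monolayer 1 the changes at 211506_s_at and 202859_x_at were 1.77 and 0.93, and both passed (limma adjusted p = 0.00235 and 0.0178). Without monolayer 3 the change at 211506_s_at was 3.24.

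CXCL5 and CXCL6, which attract neutrophils like the others, had another order of arrays than CXCL1, CXCL2, CXCL3 and CXCL8. CXCL6 had signals of 21.0, 18.3 and 22.2 in spheroids and of 5.42, 1.74 and 4.23 in monolayers. Here the spheroids were close together, monolayer 1 was the highest monolayer, and monolayer 2, below the mark of 3.11, the lowest. CXCL6 rose by 2.43 log2 units (SE 0.54, limma adjusted p = 0.0247) and by 2.77 without monolayer 1 (limma adjusted p = 0.0135). CXCL5 had signals of 20.8, 17.7 and 39.7 in spheroids and of 4.90, 3.21 and 4.60 in monolayers at 214974_x_at. The groups did not overlap, and monolayer 1 was the highest monolayer. CXCL5 rose there by 2.41 log2 units (SE 0.49, limma adjusted p = 0.0173) and by 2.53 without monolayer 1. At 215101_s_at CXCL5 signals were 5.95, 10.0 and 18.9 in spheroids and 2.41, 2.91 and 0.794 in monolayers, without overlap. The log2 fold change of 2.41 (SE 0.73) did not pass there (limma adjusted p = 0.0763), and all 3 monolayer values lay below 3.11. At 207852_at they were 3.22, 3.75 and 6.19 in spheroids and 6.22, 0.888 and 0.772 in monolayers. These overlapped and did not pass (log2 fold change 1.23, SE 0.88).

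Of the interferon-induced members, CXCL10 was called and CXCL11 was not, though the call of CXCL11 turned on the setting. CXCL10, which recruits activated T cells through CXCR3, had signals of 124, 62.2 and 220.4 in spheroids and of 16.3, 4.22 and 16.9 in monolayers. Every spheroid lay above every monolayer, and array 2 was the lowest in each group. CXCL10 rose by 3.36 log2 units (SE 0.63, limma adjusted p = 0.0117), which is 10.2-fold, and had the smallest adjusted p of the 17 probe sets. The log2 fold change was 3.67 without monolayer 1 and 2.70 without monolayer 2. CXCL11, a ligand of CXCR3 and of the scavenger ACKR3, had signals of 22.3, 20.2 and 47.4 in spheroids and of 6.69, 6.77 and 10.5 in monolayers at 210163_at. The groups did not overlap, but the change of 1.68 (SE 0.46) did not pass (limma adjusted p = 0.0553). At 211122_s_at CXCL11 signals were 38.8, 16.1 and 57.8 in spheroids and 7.24, 8.15 and 13.8 in monolayers. The groups overlapped there once centred, since spheroid 2 was low and its array median high (log2 fold change 1.68, SE 0.55, limma adjusted p = 0.0960). The intervals of both CXCL11 changes, 0.63 to 2.73 and 0.45 to 2.91 (95%, limma), lay above 0. CXCL11 passed at 210163_at without centring (limma adjusted p = 0.0361), at 211122_s_at without spheroid 2 (0.0318), and at both when only probe sets above the median level were tested (0.0225 and 0.0476 for 210163_at and 211122_s_at).

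CXCL12 and CXCL16 did not pass. CXCL12 had signals of 11.6, 19.3 and 19.95 in spheroids and of 13.3, 8.68 and 14.02 in monolayers at 203666_at. At 209687_at its signals were 9.09, 11.7 and 8.26 in spheroids and 5.30, 12.3 and 15.2 in monolayers. The groups overlapped at both. The log2 fold changes of CXCL12 were 0.34 and -0.20, with 95% intervals from -0.56 to 1.25 and from -1.34 to 0.93. CXCL16 had signals of 168, 94.1 and 112 in spheroids and of 165, 51.4 and 32.3 in monolayers. Monolayer 1 was nearly as high as the highest spheroid, so the groups overlapped (log2 fold change 0.75, SE 0.53, limma adjusted p = 0.469). Without monolayer 1 the log2 fold change of CXCL16 was 1.43 (SE 0.31) and passed (limma adjusted p = 0.0170), as it did without both arrays numbered 1 (1.16, adjusted p = 0.0225).

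**Figure D2:**
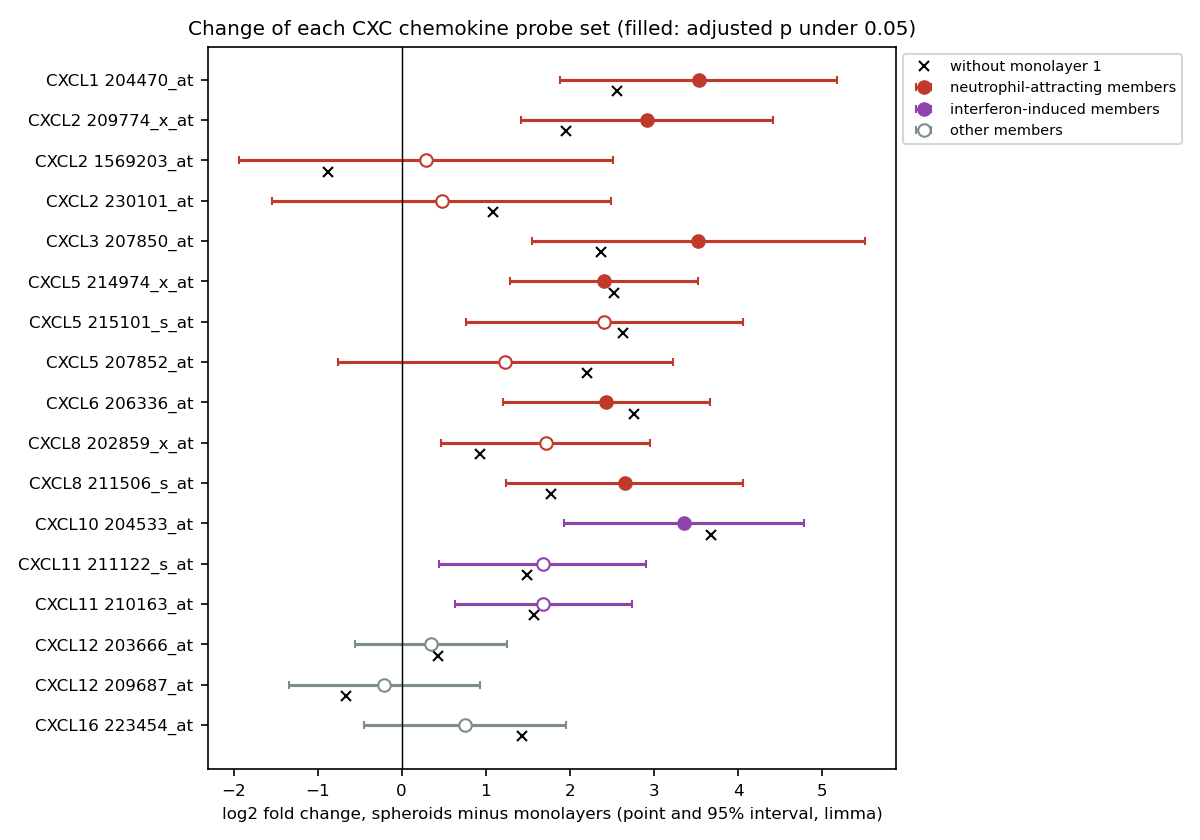
Log2 fold change, spheroids minus monolayers, of each of the 17 CXC chemokine probe sets with its 95% interval by limma; filled points have an adjusted p under 0.05, colours mark the class, and crosses give the value without monolayer 1. The 7 filled points are 1 each for CXCL1, CXCL2, CXCL3, CXCL5, CXCL6, CXCL8 and CXCL10, and leaving out monolayer 1 lowers CXCL1 to 2.56 and raises CXCL16 to 1.43.

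The neutrophil-attracting and interferon-induced classes were set against each other. With each gene read at its brightest probe set by mean level, the median log2 fold change was 2.67 over the 6 neutrophil-attracting genes (range 1.71 to 3.53) and 2.52 over the 2 interferon-induced genes (1.68 and 3.36), against -0.06 over all 19775 genes. At those probe sets 5 of 6 and 1 of 2 were called higher, where 3.88% of all genes were. Over all probe sets of the members the medians were 2.41 and 1.68. The class medians differed by 0.16 at the brightest probe sets, and that order was not stable: the difference was -0.14 without monolayer 1, -0.22 without spheroid 2 and -0.21 with all probe sets of a gene averaged, and between 0.12 and 0.73 under the other 13 of 16 alternatives. No test of the classes was made, because the members were chosen with results of these data known.

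The order of the arrays within a group differed between members. In log2 units from the mean of the 3 monolayers, monolayer 1 lay at -1.95 for CXCL1, -1.92 for CXCL2, -2.33 for CXCL3 and -1.57 for CXCL8, and at 0.24 for CXCL5, 0.67 for CXCL6, 0.63 for CXCL10 and 1.35 for CXCL16. The CXCL5 and CXCL6 monolayer signals, 1.74 to 5.42, lay around the mark of 3.11, and the part of background in their order was not tested. CXCL5 and CXCL6 had their lowest monolayer in array 2, as CXCL10 did. Among spheroids, spheroid 2 was the lowest for CXCL10 and CXCL11 (-1.09 and -1.19), and spheroid 1 for CXCL1 and CXCL3 (-0.87 and -1.02). The monolayers spanned 3.04 log2 units for CXCL2 and 2.61 for CXCL8, where the spheroids spanned 0.57 and 0.45. For CXCL3 the spans were 2.02 in spheroids and 3.68 in monolayers, for CXCL10 2.07 and 1.99, for CXCL11 2.10 and 0.92, and for CXCL5 1.41 and 0.61, so monolayers were not the more variable group at every member. The interleukin 1 genes IL1A and IL1B, which encode the cytokines that classically induce these chemokines, showed the same low array and were picked out for it after their values were seen. IL1A had signals of 1281, 1589 and 1944 in spheroids and of 71.2, 539.8 and 566 in monolayers. IL1B had signals of 3317, 4413 and 4627 in spheroids and of 466, 2754 and 3060.3 in monolayers. Neither passed over all 6 arrays (log2 fold changes 2.36 and 1.22, limma adjusted p = 0.0635 and 0.278). Without monolayer 1 IL1A passed (1.37, SE 0.19, limma adjusted p = 0.00217) and IL1B did not (0.34, SE 0.19, limma adjusted p = 0.307).

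**Figure D3:**
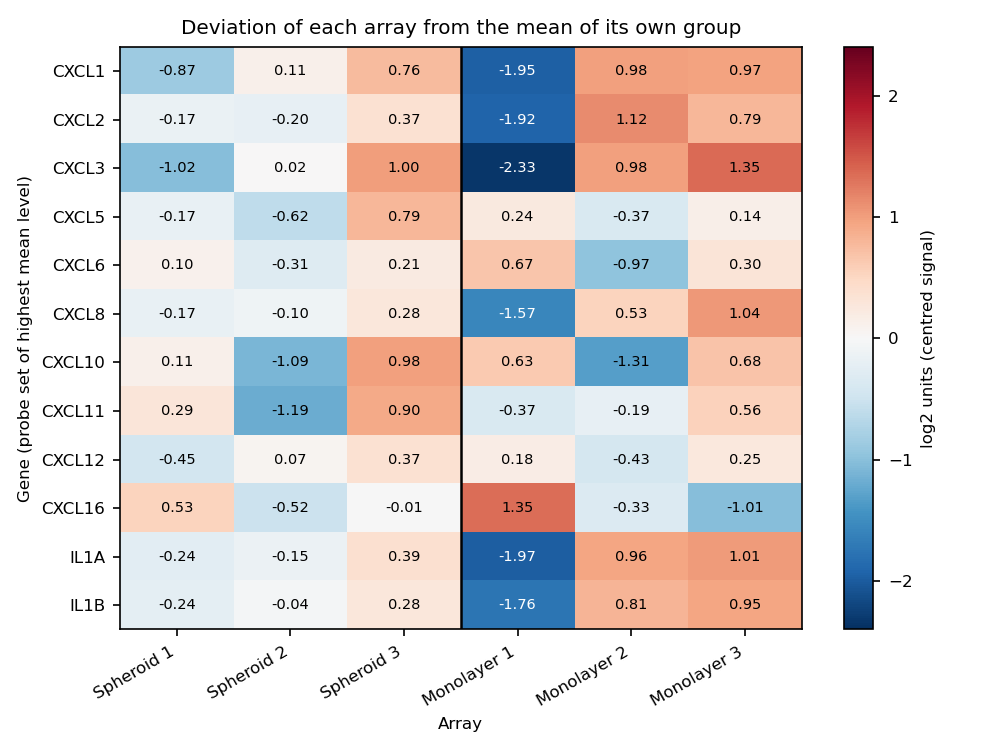
Deviation of each array from the mean of its own group, in log2 units of centred signal, for the 10 CXC chemokine genes and for IL1A and IL1B, each at its brightest probe set; columns are the 3 spheroids and the 3 monolayers. Monolayer 1 is at -1.57 or below for CXCL1, CXCL2, CXCL3, CXCL8, IL1A and IL1B and above 0 for CXCL5, CXCL6, CXCL10, CXCL12 and CXCL16.

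Calls changed when single arrays were left out. The number of member probe sets called was 9 without monolayer 1, 3 without monolayer 2, 7 without monolayer 3, 4 without spheroid 1, 3 without spheroid 2 and 0 without spheroid 3. In the same order 4.14%, 1.51%, 1.49%, 1.67%, 1.89% and 1.16% of all tested probe sets were called higher, against 2.78% over all arrays. The 3 calls without monolayer 2 were CXCL1, CXCL2 and CXCL10, the 4 without spheroid 1 were CXCL1, CXCL3, CXCL5 and CXCL10, and the 3 without spheroid 2 were CXCL5, CXCL10 and CXCL11, the last of which was not called over all arrays. CXCL10 kept its call without each of the other 5 arrays, and CXCL6 only without monolayer 1. The methods' t-test gave 0 of 17 after the same adjustment and 8 of 17 at an unadjusted p under 0.05, and limma without the mean-variance trend gave 0 of 17, with 10 at an unadjusted p under 0.05.

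The other CXC ligands were examined next. Of 7 measured, limma called 0 (1 higher at an unadjusted limma p under 0.05, 0 by the methods' t-test after adjustment, and 1 by limma without monolayer 1), with a median log2 fold change of 0.09. The platelet chemokines PF4 and PPBP, whose genes lie between CXCL1 and CXCL5, had log2 fold changes of -0.73 and 0.09 and signals of at most 14.1 in spheroids and 14.7 in monolayers. CXCL9, the third CXCR3 ligand and the neighbour of CXCL10, had signals of 7.03, 12.3 and 7.58 in spheroids and of 1.80, 8.03 and 1.64 in monolayers, which overlapped (log2 fold change 1.45, limma adjusted p = 0.275). CXCL14, a chemokine of epithelia, had signals of 23.6, 31.6 and 25.4 in spheroids and 20.1, 10.3 and 6.91 in monolayers (limma adjusted p = 0.165). These ligands and the genes of the lists below were each read at their brightest probe set, where limma called 17 of them in all. Read at the probe set of smallest adjusted p, a choice that favours calls, 23 were called. A gene said not to pass may therefore pass at another probe set.

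Of 8 receptors that bind CXC ligands, only the scavengers ACKR3 and ACKR1 were called, both higher, and 6 were not (3.88% of all genes were called higher). Scavengers take up chemokines without G protein signaling. ACKR3, which takes up CXCL11 and CXCL12, had signals of 184, 246 and 152 in spheroids and of 43.2, 26.3 and 27.7 in monolayers, and rose by 2.45 log2 units (SE 0.24, limma adjusted p = 7.94e-04). ACKR1, which binds many CXC and CC chemokines, had 59.4, 58.3 and 56.2 in spheroids and 25.7, 19.3 and 18.8 in monolayers, and rose by 1.31 (SE 0.24, limma adjusted p = 0.0110). ACKR1 did not pass without spheroid 3 (limma adjusted p = 0.0532), and ACKR3 passed without each array. At their brightest probe sets none of the signaling receptors CXCR1 to CXCR6 passed. CXCR4, the receptor of CXCL12, had 13.6, 3.42 and 2.498 in spheroids and 2.402, 7.48 and 6.80 in monolayers, which overlapped, and the log2 fold changes of CXCR2 and CXCR3 were -0.27 and 0.60.

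Enzymes that shed or trim CXC chemokines were upregulated in part, 5 of 8 higher and none lower (3.88% and 9.22% of all genes). ADAM17 and ADAM10 release CXCL16 from the membrane. ADAM17 had signals of 1872, 1831 and 1828 in spheroids and of 1031, 842 and 816 in monolayers and rose by 0.90 log2 units (SE 0.14). ADAM10 had a log2 fold change of 0.05 (SE 0.17). DPP4, a peptidase that clips and weakens CXCL10, CXCL11 and CXCL12, had signals of 1176, 1578 and 1585 in spheroids and of 629, 654 and 725 in monolayers (log2 fold change 0.96, limma adjusted p = 0.00505). The matrix metallopeptidases MMP1, MMP2 and MMP9 rose by 3.07, 3.46 and 2.38 on the log2 scale. MMP9, which trims CXCL8 at its amino end, had signals of 395, 757 and 561 in spheroids and of 49.9, 137 and 129 in monolayers.
Of 6 measured proteins that bind the AU-rich elements of chemokine mRNAs, KHSRP and ELAVL1 were called, both lower, where 9.22% of all genes were, with log2 fold changes of -0.50 and -0.50 (limma adjusted p = 0.0302 and 0.0348). KHSRP promotes decay of such mRNAs and ELAVL1 protects them. KHSRP did not pass without centring (-0.35, limma adjusted p = 0.0797), and then 1 gene of the list was called lower and 1 higher. Leaving out single arrays gave 0 or 1 called lower. ZFP36, the decay factor tristetraprolin, had a log2 fold change of 0.06 (SE 0.14). The largest change of the list was at ZFP36L2, -0.89 (SE 0.24), with all spheroids lower, and it did not pass (limma adjusted p = 0.0523). HNRNPD, at -0.40, also had all spheroids lower, and ZFP36L1, at 0.34, had all spheroids higher (limma adjusted p = 0.124 and 0.156).

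**Figure D4:**
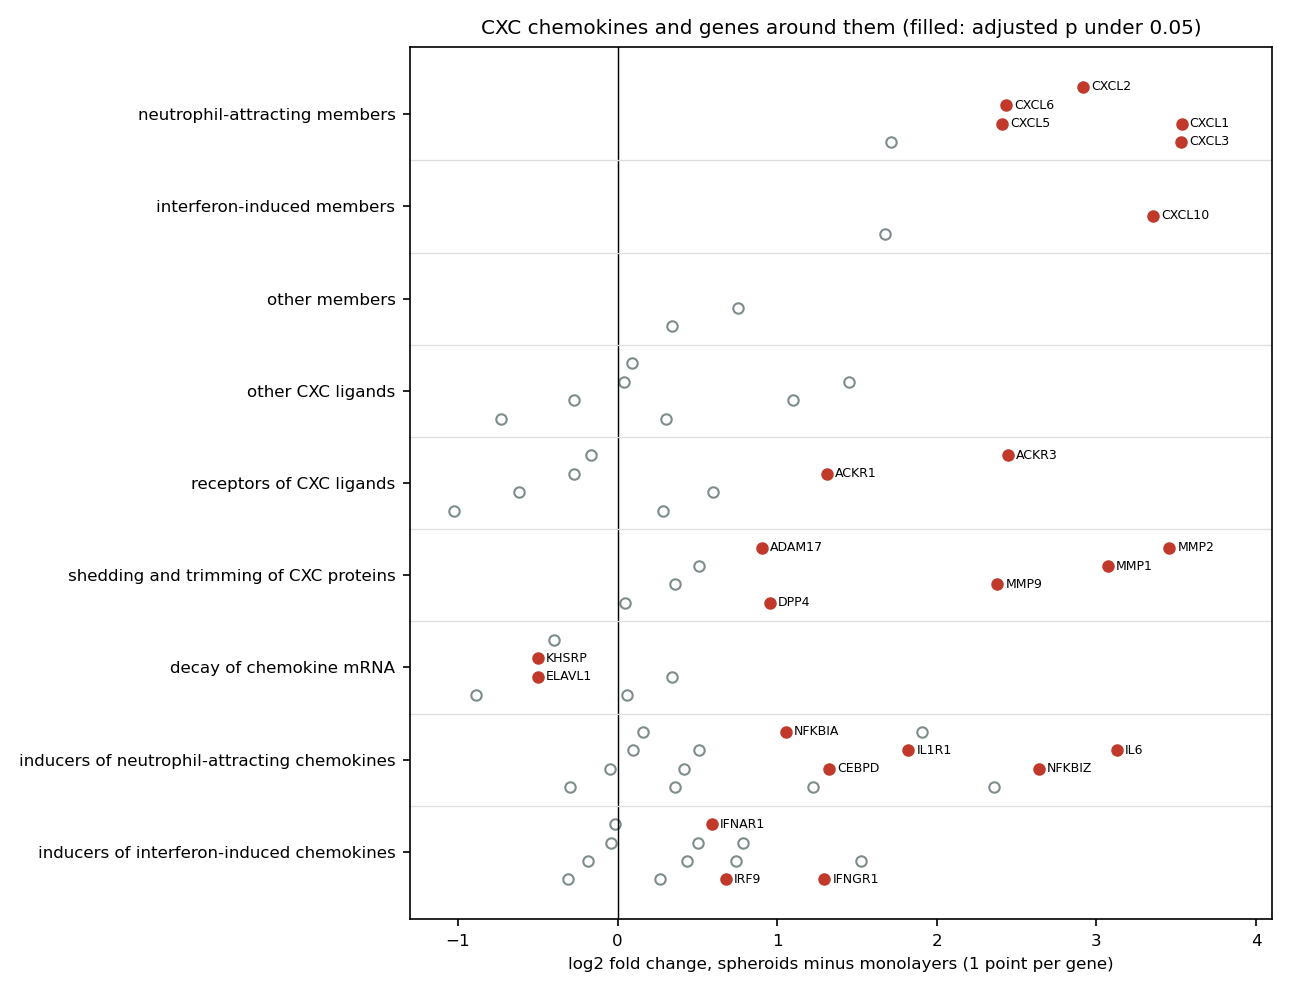
Log2 fold change, spheroids minus monolayers, of each measured gene in the CXC chemokine classes and in the lists of genes around them, 1 point per gene at its brightest probe set; filled points with names have an adjusted p under 0.05 by limma. Filled points lie to the right of 0 apart from KHSRP and ELAVL1, and none of the 7 other CXC ligands is filled.

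Among 15 measured genes that induce or regulate the neutrophil-attracting chemokines, 5 were higher and none lower (3.88% and 9.22% of all genes), with a median log2 fold change of 1.06. Without monolayer 1 the count was 7. IL6, an inflammatory cytokine, had signals of 746, 1553 and 2799.5 in spheroids and of 86.0, 219.9 and 189.8 in monolayers and rose by 3.13 (SE 0.48, limma adjusted p = 0.00487). As for CXCL1, spheroid 3 was the highest array and monolayer 1 the lowest. IL1R1, the receptor of interleukin 1, rose by 1.82 (SE 0.42) but, of the single arrays, only monolayer 1 could be left out without loss of the call, and its highest monolayer was monolayer 1, at 219 where the others had 74.4 and 65.8. CEBPD, a transcription factor of the acute phase, rose by 1.32 (SE 0.22), and the NF-kB feedback genes NFKBIZ and NFKBIA by 2.64 and 1.06. NFKBIA encodes an inhibitor of NF-kB, while NFKBIZ encodes a nuclear cofactor of it. The subunit genes NFKB1, NFKB2, RELA and RELB did not pass (log2 fold changes 0.16, 0.09, 0.36 and 0.51), nor did TNF (1.91, SE 0.61, limma adjusted p = 0.0930).
Among 14 measured genes that induce CXCL10 and CXCL11, 3 were higher and none lower (3.88% and 9.22% of all genes), with a median log2 fold change of 0.55. IFNGR1, the ligand-binding chain of the interferon gamma receptor, rose by 1.30 (SE 0.24), with signals of 3357, 3196 and 3338 in spheroids and of 1845, 988 and 980.4 in monolayers. IRF9, a transcription factor of the type I interferon response, rose by 0.68 (SE 0.16) and IFNAR1, a chain of the type I interferon receptor, by 0.59 (SE 0.13). Between 0 and 4 genes of this list were called when single arrays were left out, 6 without centring and 7 after quantile normalization. None of the listed interferon genes, IFNB1, IFNG and IFNL1, passed, and other interferon genes were not examined. IFNB1 lay at 1.02 to 2.22 in spheroids and 1.47 to 2.49 in monolayers, and IFNG at 2.67 to 11.03 in spheroids and 2.58 to 3.06 in monolayers. IFNL1, a type III interferon, had signals of 12.5, 20.7 and 18.2 in spheroids and of 12.3, 1.98 and 5.98 in monolayers (log2 fold change 1.53, limma adjusted p = 0.211, unadjusted p = 0.0457).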

How the data were processed

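RNA of 3 spheroid and 3 monolayer cultures was measured on 1 array each. The authors deposited linear signal intensities, 1 for each probe set, computed with MAS5, whose version is not given in the sources used here, scaled to a trimmed mean of 150.0 on every array (highest and lowest 2% left out). A further median normalization named in the methods is not seen in the deposited values, whose array medians differ. Detection calls were not used here.

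Of 54675 probe sets, 62 controls were left out. Log2 signals, with no pseudocount, floor or filter, were centred on the array median. Groups were fitted in limma 3.58.1 (R 4.3.3) using a mean-variance trend and Benjamini-Hochberg adjustment over 54613 probe sets (threshold 0.05). The platform annotation, with symbols updated to current RefSeq names, gives 1 gene to 41097 probe sets, several to 1801 and none to 11777. Each listed gene is represented by its brightest probe set, that is, by mean log2 level. The members and lists were chosen with earlier results of these data known. Named are all 17 member probe sets, the called genes of each list, the brightest gene of a list with no call, ACKR3, and marker genes. IL1A, IL1B and the other genes given with values but without a call were named after their values were seen. Alternatives were the methods' t-test, a replicate block, leaving out each array, other probe sets per gene, a fit with no trend, a signal floor (20th percentile), no centring, quantile normalization and the brighter probe sets alone. Leaving out both arrays numbered 1 was added after seeing the data. The number of arrays limits the precision.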

Additional observations from a re-analysis of the deposited data

How the results depend on the processing

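Class medians stayed above 0 under every alternative run, at 2.45 to 2.95 without single arrays for the neutrophil-attracting genes and 2.05 to 3.09 for the interferon-induced ones. The counts of calls did not hold. Limma without the trend called 457 probe sets in all, 176 of them higher, 0 member probe sets and 3 genes of the pathway lists, and the methods' t-test 1241, 267, 0 and 4, against 5149, 1519, 7 and 17 by limma with the trend. At an unadjusted p under 0.05 these tests gave 10 and 8 member probe sets, and the share of all probe sets there was not counted. Without centring 2561 probe sets were higher and after quantile normalization 2455, with 8 and 7 member calls. Without single arrays the counts ran from 2438 to 6577, 632 to 2263, 0 to 9 and 10 to 20. With signals below the 20th percentile raised to it 5 member calls were made, and CXCL3 and CXCL8 did not pass. Over 231 alternative values of single member probe sets, 175 kept direction and call, 36 lost the call, 12 gained it and 8 changed sign. The sign changes were at values without a call. CXCL2 at 1569203_at had -0.29 with the floor, -0.40 without both arrays numbered 1 and -0.88 to 0.87 without single arrays (-0.88 without monolayer 1, -0.17 without spheroid 3). CXCL2 at 230101_at ran from -0.31 (without spheroid 2) to 1.15 without single arrays, CXCL5 at 207852_at had -0.041 with the floor, and CXCL12 at 209687_at ran from -0.66 to 0.10 (without monolayer 3). The cause of these changes was not tested. Whether same-numbered cultures were paired is not given in the sources used here, and these arrays cannot settle it. Over all probe sets the deviations of same-numbered arrays correlated at 0.0909, -0.0131 and 0.0223. Only spheroid 1 correlated best with its own number. A replicate block changed the SE from 0.73 to 0.29 for CXCL1, 0.88 to 0.34 for CXCL3 and 0.63 to 0.28 for CXCL10. For CXCL5 at 214974_x_at the SE went from 0.49 to 0.50. With the replicate block 6133 probe sets were called, among them 10 member probe sets, the added ones being both of CXCL11 (limma adjusted p = 0.0342 at 211122_s_at and 0.0285 at 210163_at) and the other of CXCL8. Dim probe sets, among them those of CXCL5 and CXCL6, are limited by an unknown background.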
